A study of Mus musculus with 9 samples.

Results

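The genes of the extracellular matrix and of its remodelling enzymes were examined in the liver of mice given pulsed antibiotic treatment (PAT) early in life. The set was every gene of the array whose symbol names a collagen chain, a laminin chain, a matrix metalloproteinase (Mmp), a tissue inhibitor of metalloproteinases (Timp) or a protein of the ADAMTS group, together with fibronectin (Fn1), Lox, Loxl1, Sparc, decorin (Dcn) and lumican (Lum). It held 100 of the 18193 genes measured, each read at its brightest probe set. The rule used symbols and brightness only and no difference between groups. It also names Loxl2, which is not analysed here because its probe sets carry a second gene symbol. The 100 genes comprised 11 fibrillar collagen chains, 8 chains of the basement membrane and endostatin collagens, 8 of the network and microfibril collagens, 15 of the FACIT and transmembrane collagens, 10 laminin chains, 18 MMPs, 4 TIMPs, 15 ADAMTS proteases, 5 ADAMTS-like proteins and the 6 genes named singly. The FACIT and transmembrane group held all remaining collagen chains, among them Col7a1 and Col26a1, which are of neither type.

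Collagen chains wind into triple helices that are trimmed and crosslinked outside the cell, and the fibrillar types I, III and V form the cables that thicken in a scarred liver. Laminins are trimers of an alpha, a beta and a gamma chain, and together with type IV collagen they form the sheets of basement membranes. MMPs and ADAMTS proteases cut matrix proteins, and TIMPs block MMPs. In a healthy liver most fibrillar collagen is made by stellate cells and portal fibroblasts, while the sinusoids carry only a sparse matrix between endothelium and hepatocytes.

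All 9 samples were liver RNA of female C57BL/6J mice, 1 array per sample, and all mice ate a high-fat diet in later life. The 3 control mice drank water without antibiotic. Amoxicillin, a beta-lactam, was given to 3 mice at 25 mg/kg/day (0.167 mg/ml in the water) and tylosin, a macrolide, to 3 mice at 50 mg/kg/day (0.333 mg/ml), in 3 courses on days 10 to 15, 28 to 31 and 37 to 40. The stated age at sacrifice is 24 weeks in the labels of the samples and 22 weeks in the description of the study. Mice of a litter shared a cage and a treatment, and the litter of each sample is not given, so differences between litters cannot be told apart from those between treatments and each P measures only the spread between these samples.

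Values were log2 expression values, and array medians lay between 3.96 and 4.06. The hepatocyte transcripts albumin (Alb, 14.64 to 14.71) and transthyretin (Ttr, 14.44 to 14.53) were high in every array. Amoxicillin replicate 1 and tylosin replicate 2 stood apart in transcripts of other tissues. The mean of 15 intestinal epithelium markers was 6.21 and 5.99 in those arrays and 4.41 to 4.85 in the other 7, and the mean of 11 smooth muscle markers was 6.00 and 6.20 against 4.55 to 4.90. Reg3b, an intestinal lectin, was also at 7.75 in tylosin replicate 1. Probe sets for the 3′ and 5′ ends of beta-actin (Actb) differed by 1.29, 1.39 and 1.40 in the control arrays, 1.57, 1.39 and 1.57 with amoxicillin, and 1.49, 1.73 and 1.21 with tylosin. Those of Gapdh differed by 0.23, 0.40 and 0.43 in control, 0.54, 0.31 and 0.39 with amoxicillin, and 0.41, 0.53 and 0.34 with tylosin. A larger difference means fewer copies that reach the 5′ end.

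Most matrix genes were dim in these livers. Of the 100 genes, 19 (19%) exceeded a log2 value of 6 in at least 3 arrays, compared with 42.5% of all genes, and 78 stayed under 6 in all 9 arrays. The 19 were Col1a2, Col3a1 and Col27a1 among the fibrillar collagens, Col4a1, Col4a2 and Col18a1 among the basement membrane collagens, Col6a2, Col6a3, Col14a1, Lama5, Fn1, Sparc, Dcn, Lum, Timp2, Timp3, Mmp14, Adamts1 and Adamtsl2. The chosen probe set of Col1a2, the alpha2 chain of type I collagen, was bright at 7.29 to 8.13. That of the alpha1 chain, Col1a1, lay between 4.29 and 4.63 in all arrays. Brightness also depends on the probes, so levels are not set against each other between genes.

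Only Lama5, the laminin alpha5 chain, was called with either antibiotic at its brightest probe set, and it was lower with both. A call needed an unadjusted P under 0.01 and a log2 fold change over 0.5 in size, the thresholds of the study's methods, in a limma fit to all 9 arrays. With amoxicillin 0 matrix genes were called higher, against 0.835% of all genes, and 1 lower, against 0.445%. With tylosin 0 were called higher, against 1.01%, and 1 lower, against 0.44%. The single lower call among 100 genes is a count near these shares. After Benjamini-Hochberg adjustment over all probe sets, 0 matrix genes passed 0.05 in limma in either comparison, and neither did any other gene. The control arrays are the same in both comparisons.

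At the looser limit of an unadjusted limma P under 0.05, amoxicillin had 2 matrix genes higher (Col4a1 and Mmp13), against 7.14% of all genes, and 4 lower (Lama5, Lamb2, Col20a1 and Adamts4), against 8.34%. Tylosin had 2 higher (Col4a1 and Adamts1), against 8.29%, and 5 lower (Lama5, Col20a1, Col12a1, Col9a3 and Timp4), against 8.3%. Each of these counts of 100 lay under the share of all genes, and the difference was not tested. The matrix genes were dimmer than all genes (19% against 42.5% over 6 in at least 3 arrays), and these shares are not matched for brightness. Of the matrix genes, 81% differed by less than 0.25 on the log2 scale with amoxicillin and 80% with tylosin, compared with 78.8% and 77.9% of all genes. The median log2 fold change of the 100 genes was -0.02 and -0.01, and that of all genes -0.03 and -0.01. Among the 19 genes over 6 in at least 3 arrays, 68.4% with amoxicillin and 63.2% with tylosin differed by less than 0.25, beside 77.0% and 75.4% of all genes at that level. The medians of these 19 were 0.14 and 0.08, beside 0.06 and 0.08, and neither difference was tested.

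**Figure D1:**
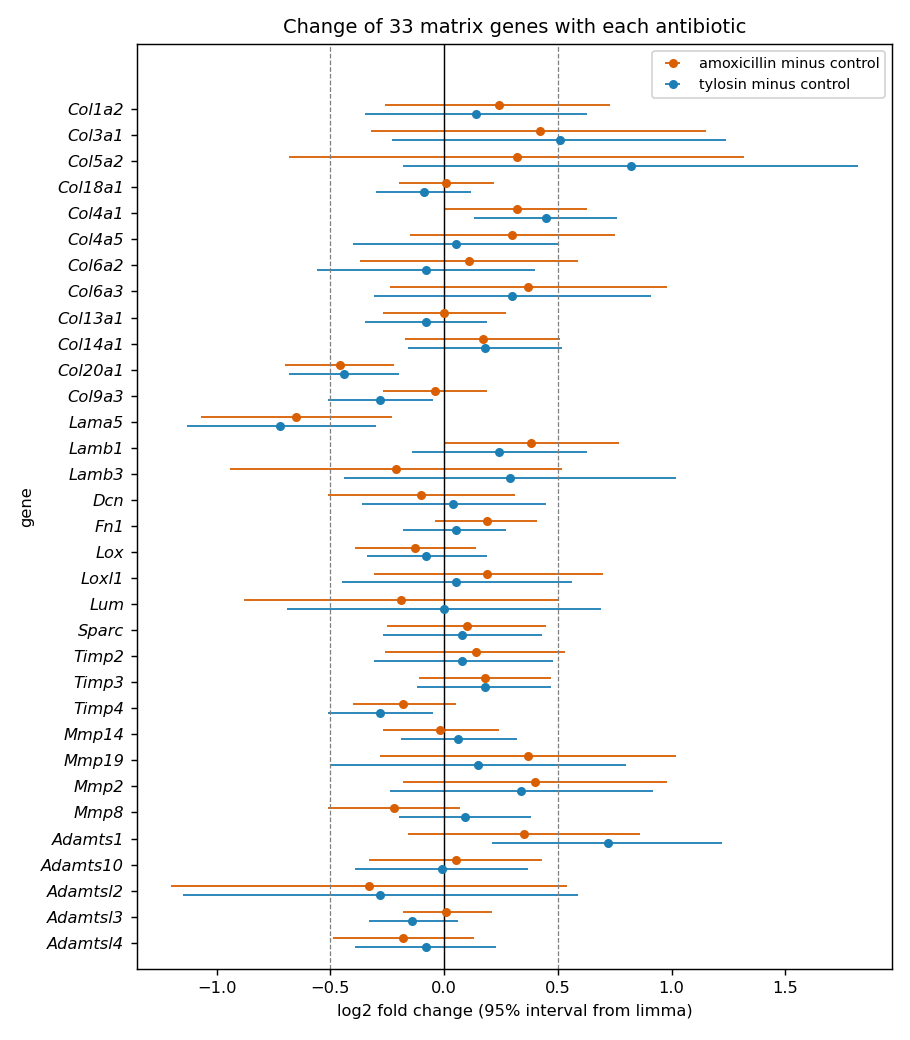
Log2 fold change against control (x axis) of 33 matrix genes (y axis), with 95% intervals from limma, for amoxicillin (orange) and tylosin (blue), 3 arrays per group. Dashed lines mark the 0.5 threshold of a call; Lama5, at -0.65 and -0.72, is the gene called with each antibiotic, and most other intervals cross 0.

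Lama5 encodes the alpha chain of the laminins that anchor epithelial and vascular cells to their basement membrane. Its log2 values were 6.86, 6.63 and 6.97 in the control arrays, 5.95, 6.38 and 6.18 with amoxicillin, and 5.84, 5.90 and 6.56 with tylosin. Every antibiotic array lay below every control array, although tylosin replicate 3 came within 0.1 of control replicate 2. The log2 fold change was -0.65 with amoxicillin (SE 0.19, 95% interval -1.07 to -0.23, adjusted p = 0.23 in limma) and -0.72 with tylosin (SE 0.19, -1.13 to -0.30, adjusted p = 0.19). Between the antibiotics the difference was -0.06 (-0.48 to 0.35, adjusted p = 1.0). In bulk liver, fewer cells of a type and less RNA per cell cannot be told apart.

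The other Lama5 probe sets were dim and lay lower with the antibiotics on average without a call. The probe set with means of 4.13, 3.80 and 3.93 in control, amoxicillin and tylosin arrays differed by -0.33 (adjusted p = 0.33) and -0.20 (adjusted p = 0.53), and that with means of 3.32, 3.03 and 3.01 by -0.29 (adjusted p = 0.28) and -0.31 (adjusted p = 0.25). With the mean of all 3 probe sets, Lama5 was at -0.43 with amoxicillin and -0.41 with tylosin, both under the fold threshold. The amoxicillin call was also lost without control replicate 1 (-0.63), control replicate 3 (-0.58), amoxicillin replicate 1 (-0.54) or amoxicillin replicate 3 (-0.66), since P then exceeded 0.01. The tylosin call was lost in the same way when the array left out was tylosin replicate 1 (-0.58), tylosin replicate 2 (-0.61), control replicate 1 (-0.70) or control replicate 3 (-0.64).

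Lama5 ran with the Actb difference described above, but only in part with that of Gapdh. The 4 arrays with the largest Actb difference (amoxicillin replicates 1 and 3, tylosin replicates 1 and 2) were also the 4 with the lowest Lama5. Of these, amoxicillin replicate 1 (0.54) and tylosin replicate 2 (0.53) had the largest Gapdh differences. Amoxicillin replicate 3 (0.39) and tylosin replicate 1 (0.41) lay within the Gapdh range of the control arrays (0.23 to 0.43). With the Actb difference as a covariate, an alternative chosen after the data were seen, Lama5 was at -0.45 with amoxicillin (no call) and -0.56 with tylosin (still called). With amoxicillin replicate 1 and tylosin replicate 2, the arrays of the intestinal and smooth muscle transcripts, left out together, Lama5 was at -0.54 and -0.61, neither a call. Without the 4 arrays of largest Actb difference it was at -0.44 and -0.25. That leaves 1 amoxicillin and 1 tylosin array, which the fit assumes to vary like the control arrays. The part of RNA quality in the lower Lama5 values was not tested beyond these fits.

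**Figure D2:**
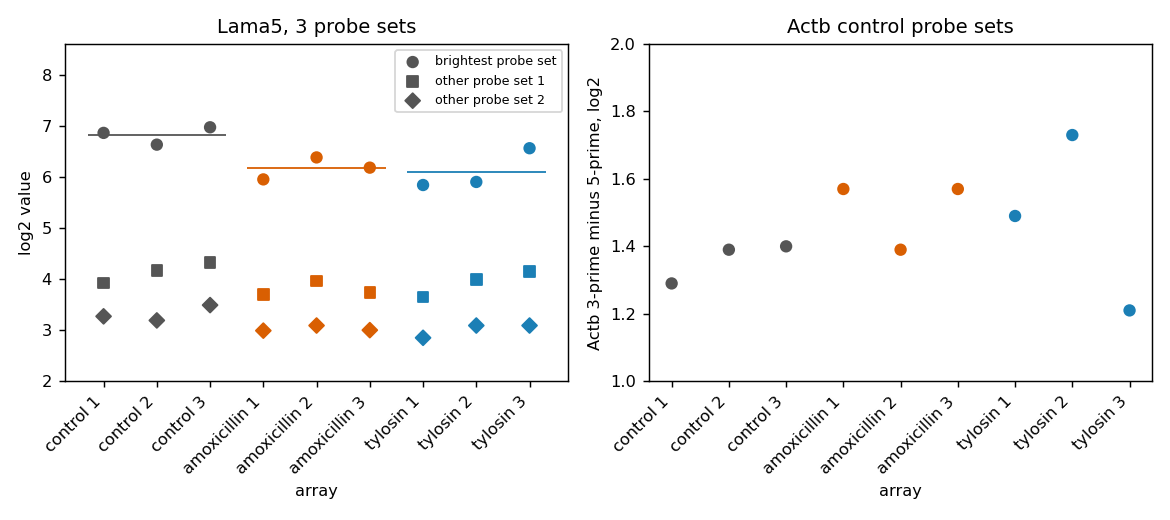
Left, log2 value of the 3 Lama5 probe sets (circles, squares and diamonds) in each array, with group means of the brightest as lines; right, the difference between the 3′ and 5′ Actb probe sets on the log2 scale in the same arrays, on an axis from 1 to 2. The brightest probe set lies between 6.63 and 6.97 in control and between 5.84 and 6.56 in antibiotic arrays, and the 4 arrays with the lowest circles have the highest Actb differences.

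The stretches before the start of Lama5, the called gene, and of Adamts1, the gene nearest to a call at a higher level, are shown for context. They come from RefSeq on GRCm38.p6 and end where the annotated gene begins, read on the minus strand. Capitals mark GC boxes (GGGCGG or CCGCCC, on either strand), to which Sp1 binds, and TATA box letters (TATAAA or TTTATA, on either strand). The motifs do not overlap in these windows.
Lama5, chr2:180225905-180226109: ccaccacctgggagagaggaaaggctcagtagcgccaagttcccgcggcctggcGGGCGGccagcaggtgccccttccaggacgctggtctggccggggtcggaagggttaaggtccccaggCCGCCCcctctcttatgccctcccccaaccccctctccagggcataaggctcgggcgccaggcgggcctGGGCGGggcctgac
Adamts1, chr16:85803114-85803363: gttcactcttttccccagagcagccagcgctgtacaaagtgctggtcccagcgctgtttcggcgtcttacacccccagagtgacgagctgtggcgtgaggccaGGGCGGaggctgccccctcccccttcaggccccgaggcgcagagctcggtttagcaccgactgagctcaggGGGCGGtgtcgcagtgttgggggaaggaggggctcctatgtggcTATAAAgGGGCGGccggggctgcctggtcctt
The Lama5 window of 205 bases held 3 GC boxes and 0 TATA boxes. Of 32851 windows of that length, 25.6% held a GC box and 9.33% a TATA box, and its GC content was 71.7% beside a median of 51.7%. The Adamts1 window of 250 bases held 3 GC boxes and 1 TATA box, which 32.7% and 12.4% of windows held, with a GC content of 65.6% beside a median of 52.4%. These matches are letters only, and binding was not measured.

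The other 9 laminin chains gave no call, and their shifts had both signs. Lamb1, a beta chain of widely expressed laminins, was at 5.84, 5.68 and 5.12 in control, 6.10, 6.01 and 5.68 with amoxicillin, and 5.83, 5.82 and 5.72 with tylosin, with log2 fold changes of 0.38 (adjusted p = 0.34) and 0.24 (adjusted p = 0.53). Control replicate 3 was the lowest array, and the groups overlapped. Lamb2, the beta chain of synaptic and glomerular laminins, was dim and differed by -0.29 with amoxicillin (adjusted p = 0.32) and -0.09 with tylosin (adjusted p = 0.75). The alpha chains Lama1 to Lama4 were dim, between 3.54 and 5.42, and Lamc1, the common gamma chain, stayed between 4.93 and 5.49. Lamc3 lay higher in all 3 tylosin arrays (3.73 or more) than in all control arrays (3.60 to 3.63), at a log2 fold change of 0.20 (adjusted p = 0.53). Lamb3, a chain of epidermal laminin, was at 5.74 in tylosin replicate 3 and between 3.84 and 4.80 in the other 8 arrays.

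Among the 8 basement membrane and endostatin collagens, only Col4a1 had an unadjusted limma P under 0.05, and it had it with both antibiotics. This chain of the common type IV network was at 7.29, 7.01 and 7.02 in control, 7.63, 7.36 and 7.29 with amoxicillin, and 7.34, 7.51 and 7.81 with tylosin. All 3 tylosin arrays lay above the control arrays, while amoxicillin replicate 3 met the highest control array. The log2 fold change was 0.32 with amoxicillin (0.00 to 0.63, adjusted p = 0.34) and 0.45 with tylosin (SE 0.14, 0.13 to 0.76, adjusted p = 0.23 in limma), under the fold threshold. It passed both thresholds without control replicate 1 (0.54) or tylosin replicate 1 (0.56). A second Col4a1 probe set differed by 0.08 (adjusted p = 0.81) and 0.16 (adjusted p = 0.6).

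Col4a2, which pairs with Col4a1 in the same trimer and shares its promoter region, was at 7.33, 7.04 and 6.82 in control, 7.28, 7.28 and 7.37 with amoxicillin, and 6.94, 7.16 and 7.84 with tylosin. Its log2 fold changes were 0.25 and 0.25 (adjusted p = 0.58 and 0.58), and tylosin replicate 3 was the highest array. Col18a1, the source of endostatin and a product of hepatocytes, was between 10.84 and 11.08 on its chosen probe set, with 0.01 (-0.20 to 0.22) and -0.09 (-0.30 to 0.12). A second Col18a1 probe set was at 10.72 to 10.85 in control, 10.88 to 11.27 with amoxicillin and 10.70 to 10.99 with tylosin. There all amoxicillin arrays lay above control, at 0.26 (adjusted p = 0.34), and tylosin differed by 0.07 (adjusted p = 0.81). The chains of the specialised type IV networks, Col4a3 to Col4a6, lay between 2.76 and 5.06, and Col15a1 between 4.03 and 4.46.

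The fibrillar collagens gave no call. Col3a1, the chain of type III collagen, was at 8.30, 8.09 and 7.52 in control, 9.07, 8.19 and 7.90 with amoxicillin, and 8.10, 8.25 and 9.09 with tylosin. Amoxicillin replicate 1 and tylosin replicate 3 were high, control replicate 3 was low, and the remaining arrays overlapped. The log2 fold changes were 0.42 (-0.32 to 1.15, adjusted p = 0.57) and 0.51 (-0.23 to 1.24, adjusted p = 0.49). Without amoxicillin replicate 1 and tylosin replicate 2, the arrays with smooth muscle transcripts, the differences were 0.07 with amoxicillin and 0.62 with tylosin, and without tylosin replicate 3 the tylosin difference was 0.20. A dim second Col3a1 probe set was at 2.86 to 3.21 in control and at 3.27 or more in every antibiotic array. It differed by 0.57 (adjusted p = 0.3 in limma) and 0.33 (adjusted p = 0.52), without a call.

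Col5a2, a chain of type V collagen, which nucleates fibrils, had the largest log2 fold change with tylosin among the 100 genes, at 0.82, and it rested on a single array. Its values were 5.34, 5.22 and 4.54 in control, 6.05, 5.29 and 4.74 with amoxicillin, and 5.40, 5.20 and 6.97 with tylosin. Without tylosin replicate 3 the tylosin difference was 0.27, and with all arrays its interval ran from -0.18 to 1.82 (adjusted p = 0.41). With amoxicillin the difference was 0.32 (adjusted p = 0.76).

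Col1a2 was at 7.82, 7.47 and 7.29 in control, 8.13, 7.79 and 7.38 with amoxicillin, and 7.47, 7.45 and 8.09 with tylosin, so that the same antibiotic arrays were high again. Its differences were 0.24 (-0.26 to 0.73) and 0.14 (-0.35 to 0.63). Its other probe sets were dim. That at 3.53 to 5.01 differed by 0.41 (adjusted p = 0.42 in limma) and -0.11 (adjusted p = 0.84), and that at 2.37 to 2.62 by -0.02 and -0.15. Col27a1, a fibrillar chain of cartilage in the main, was between 6.73 and 7.14. The remaining fibrillar chains stayed under 6, among them the cartilage collagens Col2a1 (3.35 to 3.64), Col11a1 (2.81 to 3.37) and Col11a2 (3.19 to 3.83). The type V chains Col5a1 and Col5a3 were at 5.05 to 5.44 and 4.64 to 5.45. Another Col5a1 probe set was at 4.80 to 5.05 in control and 5.07 or more in every antibiotic array. It differed by 0.46 (adjusted p = 0.28 in limma) and 0.21 (adjusted p = 0.58), and the remaining one by 0.21 and 0.07. A dim second Col5a3 probe set lay lower in every antibiotic array, by -0.30 and -0.36 (adjusted p = 0.23 and 0.19), against 0.20 and 0.31 on the chosen one. None was called.

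**Figure D3:**
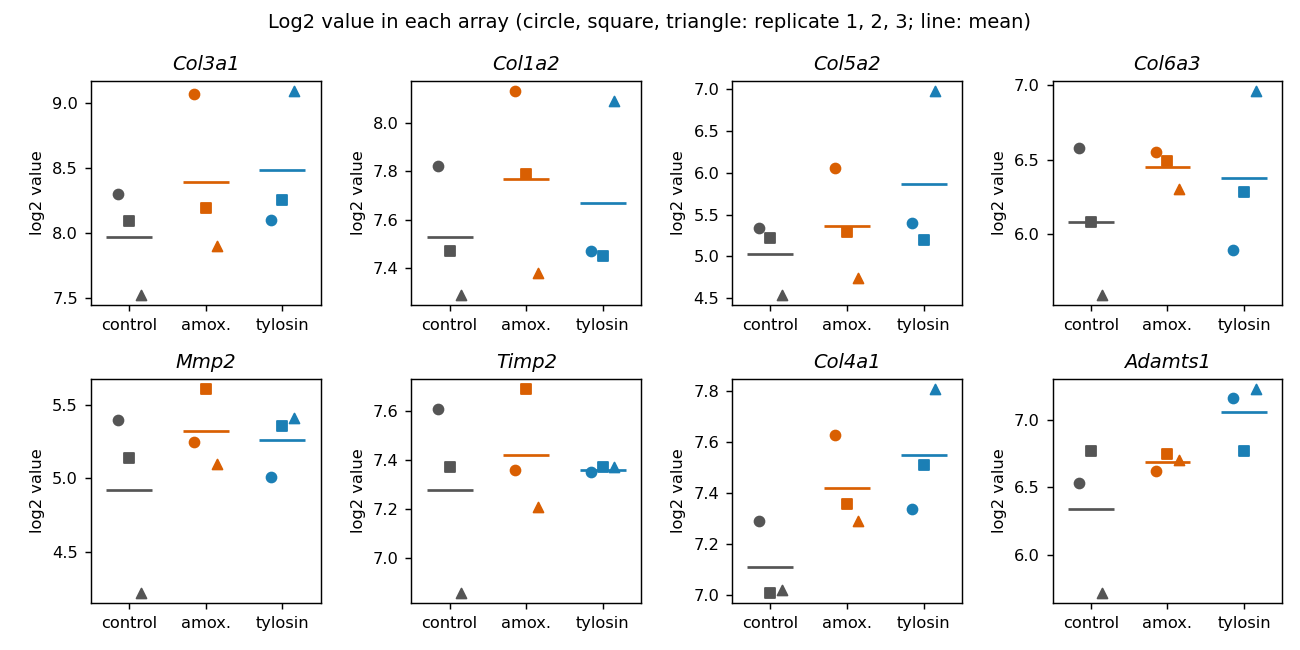
Log2 value (y axis, a separate range per panel that does not start at 0) of 8 matrix genes in each control, amoxicillin and tylosin array, with circles, squares and triangles for replicates 1, 2 and 3 and lines for group means. Control replicate 3 is the lowest array for Col3a1, Col1a2, Col5a2, Col6a3, Mmp2, Timp2 and Adamts1, and tylosin replicate 3 is the highest for Col3a1, Col5a2, Col6a3, Col4a1 and Adamts1.

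Collagen VI forms beaded filaments around cells, and its chains are Col6a1, Col6a2 and Col6a3. Col6a3 was at 6.58, 6.08 and 5.59 in control, 6.55, 6.49 and 6.30 with amoxicillin, and 5.89, 6.28 and 6.96 with tylosin. The ranges overlapped, with log2 fold changes of 0.37 (adjusted p = 0.54) and 0.30 (adjusted p = 0.63). Col6a2 was between 6.49 and 7.52 and Col6a1 between 5.39 and 6.18, both highest in amoxicillin replicate 1. Col6a1 was next highest in tylosin replicate 2 (6.04), the other array with intestinal and smooth muscle transcripts, while Col6a2 was at 6.83 there. The part of those transcripts in these values was not tested. The network collagens Col8a1, Col8a2 and Col10a1 stayed between 2.67 and 4.45.

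Of the FACIT and transmembrane collagens only Col14a1, which coats fibrils of mature tissue, was bright. It lay between 8.03 and 8.72, with differences of 0.17 (-0.17 to 0.51) and 0.18 (-0.16 to 0.52). Col20a1, a FACIT chain described mostly in embryonic tissue of the chick, was dim but had the smallest P of the 100 genes. Its values were 4.67, 4.72 and 4.88 in control, 4.26, 4.41 and 4.23 with amoxicillin, and 4.12, 4.41 and 4.41 with tylosin, and both antibiotic groups lay wholly below control.

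The log2 fold changes of Col20a1 were -0.46 (SE 0.11, adjusted p = 0.2 in limma) and -0.44 (SE 0.11, adjusted p = 0.19), under the fold threshold. It passed both thresholds with amoxicillin without control replicate 1 (-0.50) or amoxicillin replicate 2 (-0.51). Of its other probe sets, that at 4.16, 3.95 and 4.37 in control and 3.84, 3.60 and 3.39 with tylosin was called lower (-0.55, adjusted p = 0.19), and it was the only called one of the 92 further probe sets of the matrix genes. The remaining pair differed by 0.07 and -0.01 with amoxicillin and by -0.09 and -0.05 with tylosin. All 3 tylosin arrays lay below the control arrays for Col12a1 (4.76 to 5.11, log2 fold change -0.33, adjusted p = 0.28) and Col9a3 (4.23 to 4.56, -0.28, adjusted p = 0.27). The 14 dim chains of this family ranged from 2.82 for Col26a1 to 5.96 for Col13a1.

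Fibronectin, secreted by hepatocytes into plasma and laid down early in scars, was between 12.33 and 12.65 in all arrays. Fn1 differed by 0.19 with amoxicillin (-0.04 to 0.41, adjusted p = 0.41) and 0.05 with tylosin (-0.18 to 0.27, adjusted p = 0.85). A dimmer Fn1 probe set was at 6.14, 5.16 and 6.28 in control, 6.40 to 6.92 with amoxicillin and 6.31 to 6.60 with tylosin. It differed by 0.74 (adjusted p = 0.27 in limma) and 0.54 (adjusted p = 0.36), without a call. Control replicate 2 was its lowest array, 0.98 below the next.

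Decorin and lumican are small proteoglycans that space collagen fibrils. Dcn lay between 10.79 and 11.51 and Lum between 6.92 and 8.31, and neither set of groups separated. Dcn differed by -0.10 (-0.51 to 0.31) and 0.04 (-0.36 to 0.45), and the intervals of Lum ran from -0.88 to 0.50 and from -0.69 to 0.69.

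Sparc, a collagen-binding protein of the matrix, was between 8.08 and 8.72 and differed by 0.10 (adjusted p = 0.8) and 0.08 (adjusted p = 0.84). Its second probe set, at 7.42, 7.25 and 7.21 in control, 7.66, 7.62 and 7.56 with amoxicillin, and 7.57, 7.60 and 7.67 with tylosin, lay higher in every antibiotic array, by 0.32 and 0.32 (adjusted p = 0.22 and 0.2). That shift was under the fold threshold, and the remaining probe set lay at -0.35 (adjusted p = 0.32) with amoxicillin. The crosslinking enzymes Lox and Loxl1 were dim, at 3.15 to 3.57 and 4.27 to 5.28.

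Of 18 MMPs, only Mmp14, the membrane-bound collagenase that activates the Mmp2 proenzyme, was bright. It held between 8.68 and 9.08, with differences of -0.02 (-0.27 to 0.24) and 0.06 (-0.19 to 0.32). Mmp2, gelatinase A, was at 5.40, 5.14 and 4.22 in control, 5.25, 5.61 and 5.10 with amoxicillin, and 5.01, 5.36 and 5.41 with tylosin. Its differences of 0.40 (adjusted p = 0.49) and 0.34 (adjusted p = 0.56) rested on the low control replicate 3, and without that array they were 0.05 and -0.01.

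Mmp13, the main rodent collagenase of fibrosis resolution, was at the floor of the array. It lay at 2.54, 2.39 and 2.41 in control and 2.65, 2.96 and 2.54 with amoxicillin, a difference of 0.27 (adjusted p = 0.32), and at 2.32 to 2.49 with tylosin. Mmp7, matrilysin of glandular epithelium, was highest in amoxicillin replicate 1 (5.86) and tylosin replicate 2 (5.32), the arrays with intestinal markers, and between 4.66 and 4.91 in the other 7. Whether the intestinal transcripts account for these Mmp7 values was not tested. Mmp8 and Mmp9, collagenase and gelatinase of neutrophils, lay at 3.09 to 3.70 and 3.69 to 4.46. Mmp12, the macrophage elastase, was at 2.71 to 3.15. Mmp19, an MMP of basement membrane proteins, was at 4.70 in control replicate 1 and 4.97 in tylosin replicate 3 and between 5.54 and 5.99 in the other 7 arrays, with differences of 0.37 (adjusted p = 0.57) and 0.15 (adjusted p = 0.84).

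Timp2 and Timp3 were bright, while Timp1, the inhibitor that rises in liver fibrosis, was dim in all arrays at 3.13 to 3.76. Timp2 was at 6.86 to 7.61 in control and 7.21 to 7.69 with amoxicillin, and at 7.35, 7.37 and 7.37 with tylosin, with differences of 0.14 (adjusted p = 0.74) and 0.08 (adjusted p = 0.85). Another of its 6 probe sets differed by -0.33 (adjusted p = 0.25) and -0.30 (adjusted p = 0.27). Timp3, which binds to the matrix and also inhibits ADAM17, was between 7.37 and 7.92, at 0.18 with either antibiotic (adjusted p = 0.54 and 0.55). Timp4 was dim at 3.06 to 3.59 and differed by -0.28 with tylosin (adjusted p = 0.27).

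Adamts1, a protease of aggrecan and versican, came nearest to a call among genes at a higher level. Its values were 6.53, 6.77 and 5.72 in control, 6.62, 6.75 and 6.70 with amoxicillin, and 7.16, 6.77 and 7.23 with tylosin. The tylosin arrays lay above the control arrays, but tylosin replicate 2 and control replicate 2 were equal to 2 decimals. The log2 fold change with tylosin was 0.72 (SE 0.23, 0.21 to 1.22, adjusted p = 0.23 in limma), and its unadjusted P was just over 0.01. Without the low control replicate 3 it was 0.40, and without control replicate 2 (0.93) or tylosin replicate 2 (0.86) it was called. With amoxicillin it was 0.35 (-0.16 to 0.86, adjusted p = 0.49), and the difference between the antibiotics was 0.37 (-0.14 to 0.87, adjusted p = 1.0).

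The other 14 ADAMTS proteases were dim. Adamts9 was at 5.62 in tylosin replicate 3 and between 4.46 and 4.91 elsewhere. Adamts4, an aggrecanase, was at 3.08 to 3.77 and differed by -0.30 with amoxicillin (adjusted p = 0.3). Adamts10, a protease of fibrillin microfibrils, was at 4.53 to 5.35, and the lowest value of the family was 2.34 in Adamts19. Adamtsl2, which binds the latent TGF beta complex, was the bright ADAMTS-like gene and varied widely within groups, at 7.24, 6.35 and 6.31 in control, 5.98, 6.65 and 6.27 with amoxicillin, and 5.57, 6.18 and 7.31 with tylosin. Its intervals, from -1.20 to 0.54 and from -1.15 to 0.59, were wide. The other 4 ADAMTS-like genes were dim, with Adamtsl4 at 4.67 to 5.33.

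Counted by groups that do not overlap, the matrix genes again lay under the shares of all genes, a difference that was not tested. Fewer matrix genes than genes in general exceeded 6 in at least 3 arrays (19% against 42.5%). No share at matched brightness was taken, so these counts do not show that the set varied less than other genes. Of the 100 genes, 1 (Mmp13) had all 3 amoxicillin arrays above all 3 control arrays, against 9.52% of all genes, and 5 (Lama5, Col20a1, Col9a2, Col26a1 and Adamts15) had all 3 below, against 11.4%. With tylosin 3 (Col4a1, Lamc3 and Adamts1) lay above, against 8.21%, and 5 (Lama5, Col20a1, Col12a1, Col9a3 and Adamtsl3) below, against 9.15%.

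No matrix gene was called between tylosin and amoxicillin in limma (0 higher, against 0.0715% of all genes, and 0 lower, against 0.0385%). At an unadjusted limma P under 0.05, 1 gene was higher with tylosin (Mmp8, 0.31, adjusted p = 1.0), against 1.78%, and 2 were lower (Mmp13, -0.28, adjusted p = 1.0, and Col9a3, -0.24, adjusted p = 1.0), against 1.36%. A total of 94% of the genes differed by less than 0.25 on the log2 scale, compared with 93.1% of all genes.

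Single arrays stood apart among the bright matrix genes. Of the 19 genes with a mean over 6, control replicate 3 was the lowest array for 11 (57.9%): Col1a2, Col3a1, Col4a2, Col6a3, Col14a1, Dcn, Fn1, Sparc, Timp2, Timp3 and Adamts1. Among all 7524 genes with such a mean, that array was the lowest for 23.3%. The same array was the highest for 3 of the 19 (15.8%, against 10.0% of all genes), Col18a1, Col27a1 and Lama5. Tylosin replicate 3 was the highest array for 8 (42.1%), against 13.6% of all genes: Col3a1, Col4a1, Col4a2, Col6a3, Sparc, Mmp14, Adamts1 and Adamtsl2. The median deviation of the 19 genes from their own 9-array means was -0.35 in control replicate 3 (all genes -0.06) and 0.19 in tylosin replicate 3 (all genes -0.01). Amoxicillin replicate 1 (0.15) and control replicate 1 (0.10) were also above. These are descriptions of single arrays and no comparison of treatments.

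**Figure D4:**
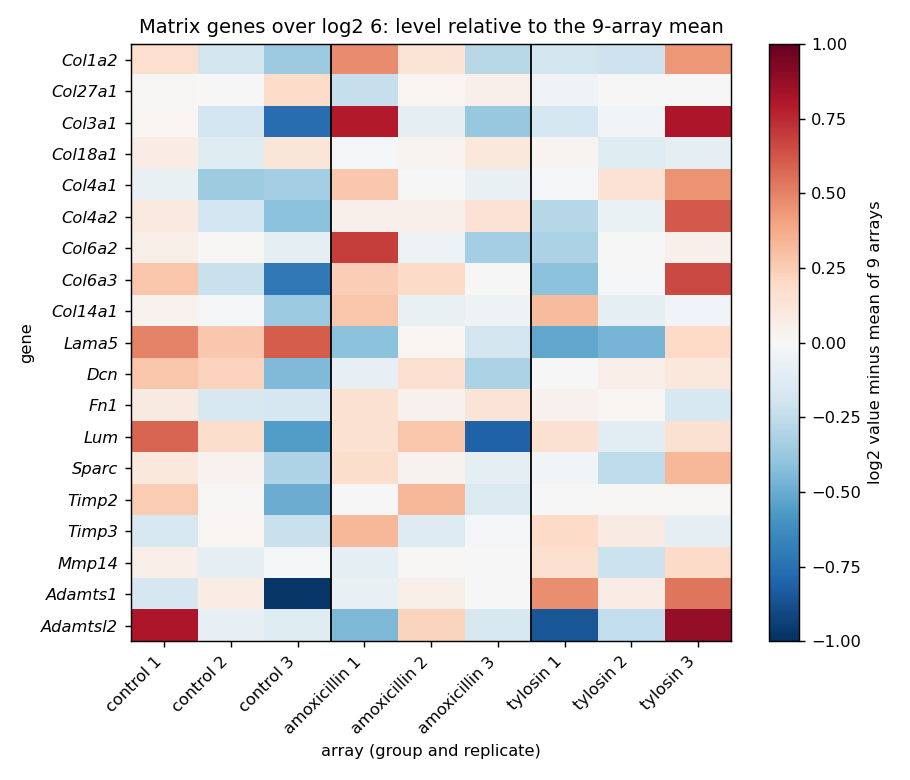
Log2 value minus the mean of the 9 arrays (colour, red higher and blue lower) for the 19 matrix genes over 6 in at least 3 arrays (rows) in each array (columns), with lines between control, amoxicillin and tylosin. Control replicate 3 is blue in most rows, with a median of -0.35, tylosin replicate 3 is red in many, with a median of 0.19, and Lama5 runs the other way in the control columns.

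Markers of the cells that make matrix followed these arrays in part, with 98 of 107 listed markers measured. The mean of 11 hepatic stellate cell markers, Colec11 and Lrat among them, was 7.06, 6.96 and 6.68 in control, 7.27, 7.11 and 6.95 with amoxicillin, and 7.18, 7.20 and 6.94 with tylosin. Control replicate 3 was the lowest there too, while tylosin replicate 3, high in collagens, was among the low arrays of the stellate list. In the Kupffer cell and macrophage list of 9 markers tylosin replicate 3 was the highest array at 9.36, with the other 8 between 8.30 and 9.17. Portal fibroblast markers (9 genes) stayed between 4.01 and 4.20 and 6 mesothelium markers between 3.20 and 3.61. In the portal fibroblast list the tylosin arrays (4.01 to 4.16) lay wholly below the control arrays (4.17 to 4.20). Only 1 of these 9 genes exceeded 6 in at least 3 arrays, and 9.15% of all genes singly lay below control in this way. The amoxicillin arrays (4.08 to 4.19) overlapped control. The mean of 10 sinusoidal endothelium markers lay between 7.28 and 7.62, and that of 6 cholangiocyte markers between 3.76 and 4.73, highest in amoxicillin replicate 1 and tylosin replicate 2. The 6 neutrophil markers lay between 3.82 and 4.39 and the 6 hepatocyte markers between 13.42 and 13.64. The mean of 6 pancreatic acinar markers was 5.07 to 5.13 in control, 4.96 to 5.05 with amoxicillin and 4.79 to 5.09 with tylosin, and that of 3 adipocyte markers 2.92 to 3.12, 2.78 to 2.90 and 2.83 to 3.25. In both of these lists the amoxicillin arrays lay wholly below the control arrays. Over 6 in at least 3 arrays were 1 of the 6 acinar and 0 of the 3 adipocyte genes. Of all genes singly, 11.4% lay below control in this way. No gene of the 12 marker lists was called in any comparison, beside the shares of all genes given above. The part of these markers in the matrix values was not tested.

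Genes that act on the matrix outside the set were followed through lists, of which 129 of 136 genes were measured. Of all genes, 0.835% with amoxicillin and 1.01% with tylosin were called higher, and 0.445% and 0.44% lower. No list was tested against these shares. Of 25 genes that process and crosslink collagen, 0 were called with either antibiotic. The list medians were -0.08 with amoxicillin and 0.00 with tylosin. Its brightest genes P4hb, a subunit of prolyl 4-hydroxylase, and Ppib, a collagen-folding cyclophilin, were at 12.11 to 12.50 and 10.76 to 11.10. Of 22 genes that activate or inhibit matrix proteases, 0 were called, with medians of 0.01 and 0.04. Plg, the plasminogen precursor, lay between 13.56 and 13.67.

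Of 34 other matrix proteins, 1 was called, Mfap2, a microfibril glycoprotein, lower with amoxicillin, against 0.445% of all genes. It was at 6.24, 5.84 and 6.16 in control, 5.34, 5.69 and 5.27 with amoxicillin, and 5.51, 5.39 and 5.99 with tylosin, for log2 fold changes of -0.65 (adjusted p = 0.22 in limma) and -0.45 (adjusted p = 0.28). The Mfap2 call was lost without control replicate 1 or 3 or amoxicillin replicate 1 or 3 (-0.56 to -0.61) and with the Actb covariate (-0.44). It was also lost with its probe sets averaged (-0.39) and without amoxicillin replicate 1 and tylosin replicate 2 together (-0.60). Without the 4 arrays of the largest Actb difference, which leaves 1 amoxicillin array, Mfap2 was at -0.39. Nid1, which links laminin to collagen IV and is named here after its values were seen, lay higher in every antibiotic array, at 6.92 to 7.41 in control, 7.56 to 7.73 with amoxicillin and 7.56 to 7.76 with tylosin. Its log2 fold changes of 0.45 and 0.44 (adjusted p = 0.23 and 0.21) were under the fold threshold. The list medians were 0.04 and -0.01.

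Of 23 matrix receptors, 1 was called, Itga6, the integrin alpha6 chain that binds laminins, higher with amoxicillin, against 0.835% of all genes. Its values were 5.23, 5.33 and 5.15 in control, 5.83, 5.68 and 5.73 with amoxicillin, and 5.74, 5.67 and 5.58 with tylosin, and both antibiotic groups lay wholly above control. The log2 fold change was 0.51 (SE 0.09, adjusted p = 0.17 in limma) with amoxicillin and 0.43 (SE 0.09, adjusted p = 0.18) with tylosin, under the fold threshold. Without control replicate 3 or amoxicillin replicate 1 the amoxicillin value fell below that threshold, to 0.47 in each case. It was also under the threshold with its probe sets averaged (0.36), with quantile normalization (0.46), with array weights (0.50 after rounding), with the Actb difference as a covariate (0.48), and without amoxicillin replicate 1 and tylosin replicate 2 together (0.47). Without the 4 arrays of the largest Actb difference, which leaves 1 amoxicillin array, it was 0.45. Itgb1, the partner chain of most laminin receptors, was between 8.39 and 8.79, and Dag1, dystroglycan, between 9.28 and 10.01, without a call. The list medians were 0.03 and 0.05.

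Among 25 regulators of TGF beta signalling and fibrosis, 1 gene was called higher with each antibiotic, against 0.835% and 1.01% of all genes. It was Ccn2, a matricellular target of TGF beta and Yap, at log2 fold changes of 1.29 (adjusted p = 0.22 in limma) and 1.35 (adjusted p = 0.19). The amoxicillin call was lost without control replicate 2 (0.93) or amoxicillin replicate 2 (1.04), and the tylosin call without tylosin replicate 3 (1.12). Without the 4 arrays of the largest Actb difference, which leaves 1 array per antibiotic, Ccn2 was at 1.81 and 1.80. The list medians were 0.19 and 0.25, beside -0.03 and -0.01 over all genes. Of the 25, 16 were over 6 in at least 3 arrays, and the medians over all genes at that level were 0.06 and 0.08. The difference was not tested. Tgfb1 itself lay between 3.44 and 4.60, with differences of -0.43 (adjusted p = 0.33) and -0.28 (adjusted p = 0.51).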

How the data were processed

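Liver RNA of 9 samples, 3 per group, was measured on Affymetrix mouse gene expression arrays, 1 for each sample. The authors normalized them with RMA in the affy package and deposited log2 expression values between 2 and 14.71. The RMA and affy versions are not given in sources used here. Raw scanner intensities were not analysed here, so background subtraction follows the authors. Every column belonged to a sample.

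Of 45101 probe sets, 64 manufacturer's controls were left out. Of the other 45037, 34958 carry 1 gene symbol in the annotation of the array, 932 several and 9211 none here. The brightest probe set, by its mean over 9 arrays, stood for each of 18193 genes. The limma package (3.58.1, under R 4.3.3) was run in 1 fit to all arrays for 3 comparisons, with moderated tests, a call where the unadjusted P was under 0.01 and the log2 fold change over 0.5 in size, and Benjamini-Hochberg adjustment over all probe sets. No dim probe set was filtered. The number of arrays limits the precision. The fit was tested on simulated data.

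The members, lists and tests were chosen with earlier results of these data known. Genes named were, by rule, called members, the brightest pair and largest changes of each family, the genes named singly, members with another probe set called, and called and brightest list genes; others were named as examples after their values were seen. Same-numbered samples were not treated as pairs. Alternatives were the adjusted p, a fold threshold of 1, a dim filter (over 6 in at least 3 arrays), array weights, quantile normalization, median centring, a robust trended variance, only the groups compared, 1 or the mean of all probe sets per gene, a replicate block and each array left out. An Actb covariate and leaving out the 4 arrays with the largest Actb difference were added after the data were seen. Promoter windows and motif shares came from RefSeq on GRCm38.p6, for 66 of 100 members. Figures were drawn with matplotlib 3.10.9 in Python 3.11.15.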

Additional observations from a re-analysis of the deposited data

How the results depend on the processing

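With amoxicillin 1 matrix gene was called. The count was 0 with the mean of all probe sets per gene, with the Actb covariate, at an adjusted p under 0.05 or at a log2 fold change over 1. It was also 0 without amoxicillin replicate 1 and tylosin replicate 2 together, and 0 to 2 as each array was left out. With tylosin 1 was called. The count was 0 with the mean of probe sets, without that pair of arrays, at the adjusted p or at the fold over 1. It was 2 with median centring or a trended and robust variance (Adamts1 added) and 3 with the Actb covariate (Lama5, Adamts1 and Col4a1). Over the arrays left out it was 0 to 2. Between the antibiotics 0 were called, and 0 with each array left out. Calls without the 4 arrays of largest Actb difference are not counted here, because 1 amoxicillin and 1 tylosin array remain. There the differences of Col5a2, Lamb3 and Adamts9 between tylosin and control were 1.93, 1.15 and 0.84, from tylosin replicate 3 alone. The median log2 fold change of the members was -0.02 with amoxicillin and 0.14 once dim probe sets were filtered out, which kept 19 genes. Medians ran from -0.04 to 0.01 with amoxicillin, -0.04 to 0.02 with tylosin and -0.01 to 0.05 between them as each array was left out. With the replicate block Lama5 was at -0.65 and -0.72 and both calls were kept. Residuals of same-numbered arrays correlated over 0.1 in 2 of 9 pairs, so the numbers were not taken as pairs. Over the 33 named members and all alternatives, 2033 values kept their call status and direction, 164 changed sign without a call before or after, 13 gained a call and 19 lost it. The adjusted p and the fold threshold of 1 reuse the main value, and some alternatives change only the variance. Many of the 2033 values therefore could not change sign. The counts also take in the fit that leaves 1 amoxicillin and 1 tylosin array. The cause of the changes was not tested, apart from the smaller sets of arrays and genes that the alternatives themselves leave. Signal limits what can be said of the 78 genes under 6 in all arrays, where background makes up more of the value.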
